A study of Homo sapiens with 4 samples.

Results

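Chromatin regulators are the enzymes and subunits that slide nucleosomes, add, read or remove chemical marks on histones, or methylate DNA. The genes described here are 83 gene names, of 10098 in both tables together, that match the families SMARC, ARID, CHD, HDAC, KDM, KMT or MLL, SETD, BRD, KAT, DNMT, EZH and ING, with pseudogene classes left out. The match uses the name and no measured value, although these families were picked with earlier results of these data known. Of these, 62 names with 106 transcripts were listed for the cell line HT-29 (9880 transcripts in all) and 69 names with 137 transcripts for the line CaCo-2 (11943 in all). In all, 80 are names of protein-coding families and 3 are RNAs that carry such a name (KMT2E-AS1, SETD5-AS1 and BRD2-IT1).

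The study asked which RNAs associate with beta-catenin, the co-activator of Wnt signalling, in the nucleus. HT-29 and CaCo-2 are established human colon adenocarcinoma lines, both untreated. Each had 1 input library of nuclear RNA made without antibody and 1 library of RNA immunoprecipitated (RIP) with a beta-catenin antibody from Bethyl, so 4 libraries in all and 1 per group. Since no group was repeated, there is no replicate error within a line, and every ratio below describes those libraries. A fit of RIP against input over both lines, with the line as a block, was not run, because the transcripts that both tables list were selected on that same difference. No mock precipitation was analysed here.

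At the protein level, beta-catenin works with several of these families. It binds TCF/LEF factors on Wnt target genes and recruits histone acetyltransferases, KMT2 methyltransferase complexes and the SWI/SNF motor SMARCA4, while CHD8 binds beta-catenin and restrains its activity. HDAC co-repressors occupy the same genes when beta-catenin is absent. These facts concern the proteins, whereas the values below concern the RNAs that encode them.

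The tables shape what can be read. Levels are in FPKM, fragment counts scaled by transcript length and library size, and each value is that of 1 annotated transcript. All listed transcripts were higher in the RIP, with a lowest deposited fold of 1.5 in both lines, so no member could be lower. The ratio used here is log2 of the RIP level over the input level after adding 1 FPKM to each, which understates low transcripts, and 2-fold means a ratio of at least 1. Unlisted transcripts of the same genes were not analysed here, so an input at 0 for 1 isoform does not show that the gene was absent from the input. Colon epithelial marker genes were present in both tables, 10 of 15 for HT-29 and 8 of 15 for CaCo-2, among them KRT18 at 54.3 and 32.0 FPKM in the RIP. Of 12 markers of blood, stroma and endothelium, the HT-29 table has 0 and that of CaCo-2 has 1, CD68 at 1.47 FPKM, a check that covers only the listed transcripts.

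Chromatin regulator RNAs were at a few FPKM in most cases, in 4 libraries that are bulk samples, so a level cannot be told apart into cells that hold the RNA and RNA per cell. In HT-29 their RIP level ranged from 1.34 to 13.2 FPKM with a median of 2.06, and the median input was 0.257, below the medians of 2.45 and 0.600 over the whole table. In CaCo-2 the RIP ranged from 0.849 to 7.94 with a median of 1.66, and the median input was 0.509, where the whole table has medians of 1.55 and 0.476. A ratio of 2-fold or more was reached by 66 of 106 transcripts in HT-29 (62.3%, 95% Wilson interval 52.8 to 70.9), where 56% of all listed transcripts reached that ratio. In CaCo-2 it was 51 of 137 (37.2%, 29.6 to 45.6), against 34.6% of all listed transcripts. Over the 117 CaCo-2 members that reached 1 FPKM in at least 1 library the share was 43.6%, against 40.8% of all such transcripts. The median log2 ratio was 1.25 (95% interval of the median 1.10 to 1.42) against 1.14 over the whole HT-29 table, and 0.84 (0.73 to 0.99) against 0.81 over the whole CaCo-2 table. Each of these intervals of members includes the value of the whole table. All intervals here cover counting error only.

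Much of the 2-fold count comes from transcripts listed at 0 in input, which pass by construction once the RIP reaches 1 FPKM. Input was 0 for 40 of the 66 (HT-29) and 25 of the 51 (CaCo-2). Over all listed transcripts past 2-fold it was 0 for 3137 of 5529 (HT-29) and 2679 of 4129 (CaCo-2), so this is a property of the whole tables. Among members with input above 0, 26 of 66 (39.4%, 28.5 to 51.5) and 26 of 103 (25.2%, 17.8 to 34.4) were past 2-fold, against 35.5% and 17.1% of all such transcripts. The CaCo-2 interval lies just above the share of the whole table and the HT-29 interval includes it. Where input and RIP both reached 1 FPKM, 5 of 20 (25%) and 6 of 34 (17.6%) were past it, against 25.2% and 13.1%. In HT-29 these were single transcripts of KMT2C, CHD8, CHD6, HDAC7 and KMT2D. In CaCo-2 they were single transcripts of SMARCE1, HDAC2, CHD2, KDM6A, DNMT1 and SETD8. No gene stands in both of these short lists. Only 3 member transcripts reached 1 FPKM in all 4 libraries, and the like overlap over all genes was not counted. The lack of overlap is therefore not read as a difference between the lines.

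**Figure D1:**
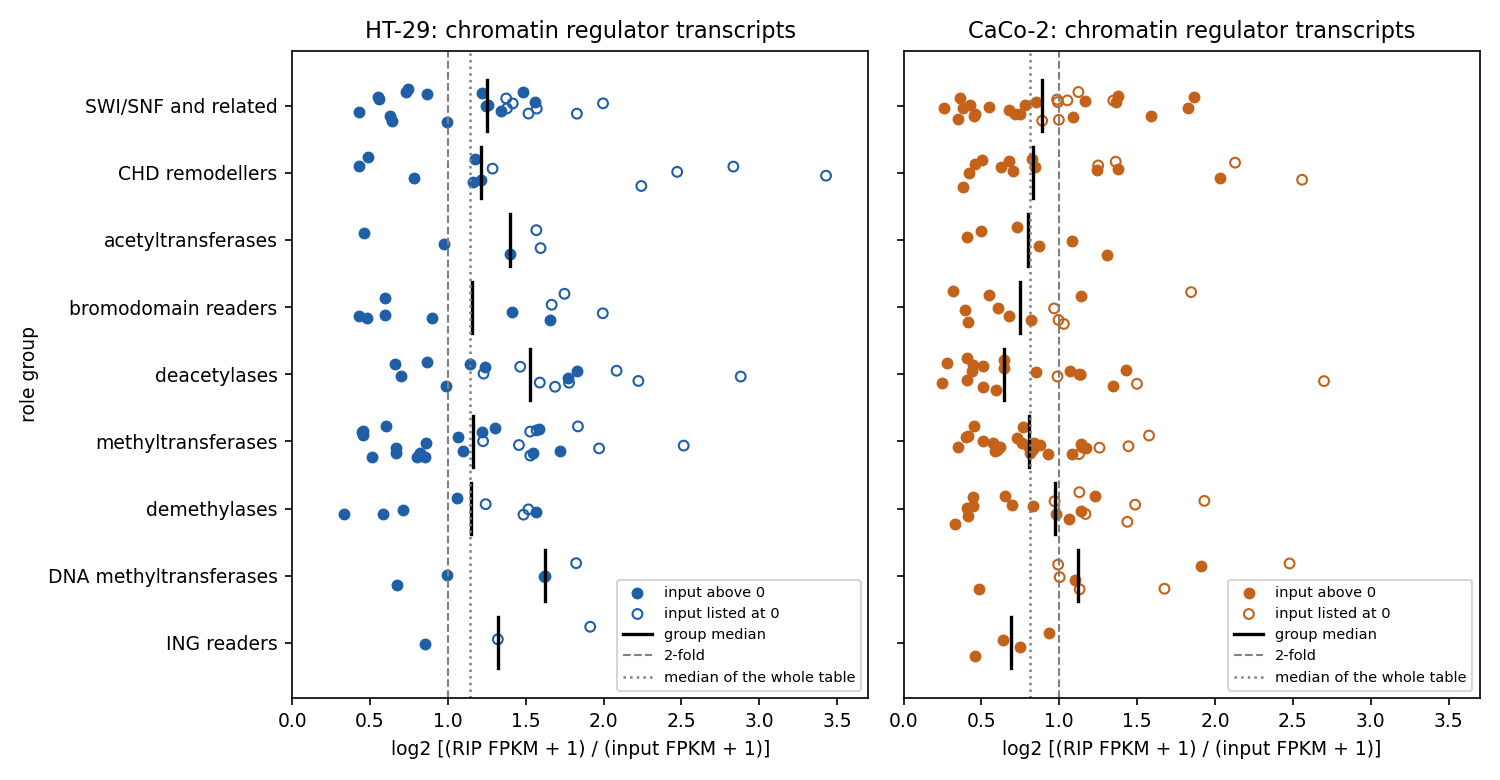
Each point is 1 listed transcript of a chromatin regulator, placed by its log2 ratio of RIP over input (x axis, pseudocount 1 FPKM) within its role group (y axis, points spread vertically for visibility), with open points for input listed at 0. Black bars are group medians, the dashed line is 2-fold and the dotted line the median of the whole table (1.14 in HT-29, 0.81 in CaCo-2). The highest points are mostly open, and the deacetylase median is 1.53 in HT-29 and 0.64 in CaCo-2.

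At the threshold of 0.05 used here for q, the authors' deposited table holds 5 member transcripts in HT-29 (4.72%, 2.03 to 10.6) and 4 in CaCo-2 (2.92%, 1.14 to 7.27). The share of all listed transcripts was 3.08% in HT-29 and 2.24% in CaCo-2, inside those intervals. The q comes from the authors' own run on 1 library per side. All 9 transcripts are of the protein-coding class, and 7 were listed at 0 in input. The 9 member transcripts span long stretches of the genome, from 44768 to 243587 bases (median 76028) in HT-29 and from 29505 to 237969 (median 85577.5) in CaCo-2. The other protein-coding members had a median span of 22682.5 and 28174.5 bases. Spans and inputs at 0 were not counted over all called transcripts, so neither can be read as particular to these genes.

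In HT-29 the lowest q among members belonged to EZH1, a catalytic subunit of Polycomb repressive complex (ENST00000415827, chromosome 17, 40852293 to 40897060). Its RIP level was 1.89 FPKM over an input listed at 0, and the authors' deposited table has a q of 0.000128. A second EZH1 transcript (ENST00000593214) had nearly the same levels, 0 and 1.88, but a q of 0.485 in the authors' deposited table. Its paralog EZH2 (ENST00000476773, chromosome 7, 148504574 to 148580601) was at 0 and 1.97, where the authors' deposited table has a q of 0.0408. Both Polycomb methyltransferases were thus called in HT-29 from a transcript without input signal. Other EZH2 transcripts had input signal: ENST00000320356 was at 1.41 over an input of 0.359, and ENST00000492143, of the nonsense-mediated decay class, at 1.55 over 0.789. The authors' deposited table has a q of 0.647 for the first and 0.673 for the second. In CaCo-2 the called transcripts of EZH1 and EZH2 were not listed. There EZH2 was represented by ENST00000320356 at 2.07 FPKM over 1.03 and EZH1 by a retained-intron transcript at 1.29 against 0.719.

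CHD8, the remodeller known to bind beta-catenin, was called in HT-29 with signal on both sides. Its transcript ENST00000557364 (chromosome 14, 21853645 to 21924239) had an input level of 1.12 FPKM and a RIP level of 3.90. The authors' deposited table has a fold of 3.49 and a q of 0.0106. The same transcript in CaCo-2 was more abundant in both libraries, at 3.38 before and 6.01 after precipitation, where the authors' deposited table has a fold of 1.78 and a q of 0.159. It was the only one of the 9 called transcripts that was listed in both lines. Of all listed transcripts, 19.5% of those in HT-29 and 16.1% of those in CaCo-2 were. The difference between the lines was not tested.

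The other HT-29 calls were ARID4B and HDAC8. ARID4B, a DNA-binding subunit of a SIN3 histone deacetylase complex (ENST00000349213, chromosome 1, 235330210 to 235491534), was at 0 and 1.601 FPKM (q of 0.0231, from the authors' deposited table). HDAC8, a class I deacetylase that acts on cohesin (ENST00000373589, chromosome X, 71549367 to 71792953), was at 0 and 2.01 (q of 0.0487, from the authors' deposited table). HDAC8 had 3 other HT-29 transcripts and was not listed for CaCo-2.

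In CaCo-2, 3 of the 4 calls were DNA methyltransferases, the enzymes that methylate cytosine. DNMT3B, which methylates new sites (ENST00000201963, chromosome 20, 31367658 to 31397162), was listed at 0 before and 4.57 FPKM after precipitation, and its q in the authors' deposited table was 8.44e-05. DNMT1, which copies methylation after replication (ENST00000359526, chromosome 19, 10244216 to 10305755), was at 0 and 2.19 (q of 0.00054, from the authors' deposited table). DNMT3A, the other enzyme for new sites (ENST00000264709, chromosome 2, 25455845 to 25565459), was at 0 and 1.19 (q of 0.00457, from the authors' deposited table). All 3 enzymes were thus called, each from a transcript listed at 0 in the CaCo-2 input.

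Other isoforms of these genes had input signal. DNMT3A transcript ENST00000402667 had 2.11 FPKM of input and 3.35 of RIP signal in CaCo-2, and 0.474 and 1.35 in HT-29. DNMT1 had 5 listed transcripts in CaCo-2, whose summed level was 1.21 in input and 10.7 in the RIP, and 4 in HT-29, at 0.284 and 8.26. A retained-intron DNMT1 transcript in CaCo-2 (ENST00000591764) had at least 1 FPKM on both sides, 1.205 and 3.74. Of the 8 DNA methyltransferase transcripts of CaCo-2, 6 were past 2-fold (75%, 40.9 to 92.9), against 34.6% of the whole table. They come from 3 genes, and 5 of the 8 had an input of 0. In HT-29 it was 3 of 5, all of DNMT1 (60%, 23.1 to 88.2), against 56%. DNMT3B was not listed in HT-29.

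The fourth call in CaCo-2 was KDM6A, the demethylase that removes the Polycomb mark from histone H3. ENST00000382899 (chromosome X, 44732781 to 44970749) had 1.11 FPKM before and 3.67 after precipitation, and a q of 0.00494 in the authors' deposited table. A sister isoform, ENST00000377967, had an input of 0.977 and a RIP of 1.69 in CaCo-2, and 0.615 and 2.36 in HT-29. The authors' deposited table has a q of 0.573 for CaCo-2 and 0.0651 for HT-29. KDM6A was thus listed with input signal in both lines, past 2-fold by different isoforms.

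**Figure D2:**
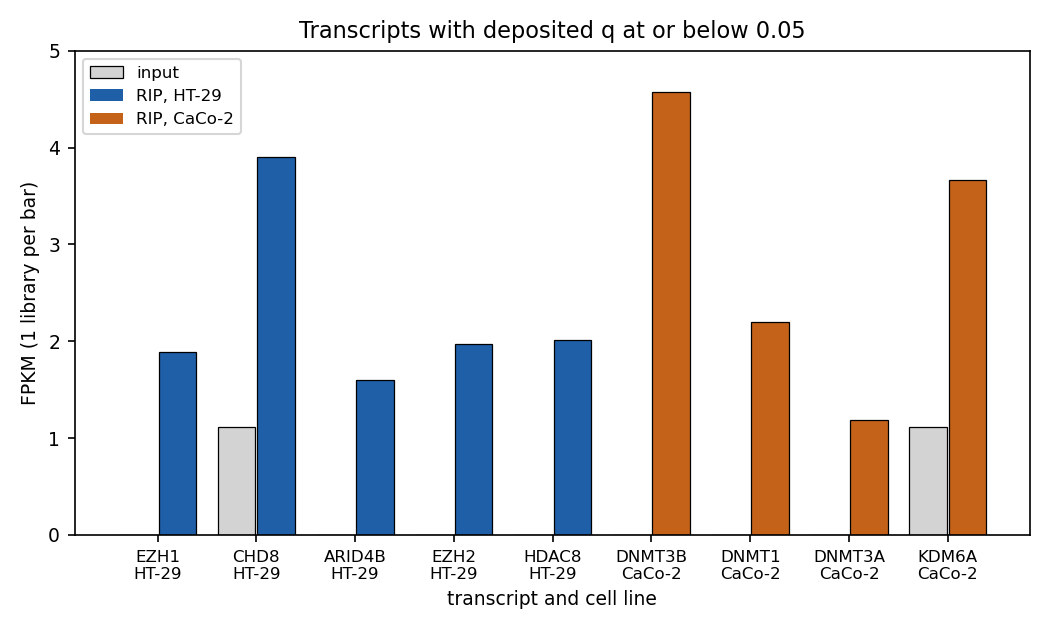
Bars give the FPKM (y axis) of the 9 chromatin regulator transcripts with deposited q at or below 0.05, in input (grey) and in the RIP (blue for HT-29, orange for CaCo-2), with 1 library per bar and therefore no error bar. CHD8 and KDM6A have input bars at 1.12 and 1.11 FPKM and the other 7 are listed at 0 in input.

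Between the lines, 48 gene names were shared, which is 77.4% of the HT-29 names and 69.6% of the CaCo-2 names. Over all listed names the shared parts were 59.2% and 51.6%. Members also had more listed transcripts per name, 1.71 in HT-29 and 1.99 in CaCo-2, against 1.52 and 1.603 over all names, and the part of this in the overlap was not tested. At the level of transcripts only 24 were shared, 22.6% of the HT-29 and 17.5% of the CaCo-2 members, where 19.5% and 16.1% of all transcripts were. For 25 of the 48 shared genes the listed transcripts were different ones in the 2 lines, a count that was not made over all shared names. Over all listed names, 3843 names and 1928 transcripts were shared, beside 48 names and 24 transcripts of members. The count of 25 is therefore not read as particular to these genes.

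Of the 24 shared transcripts, 11 were past 2-fold in both lines (45.8%, 27.9 to 64.9). The share was 27.7% of the 1928 transcripts that both tables list, just below the lower end of the interval. All 24 reached 1 FPKM in at least 1 library of each line, which only 1784 of the 1928 did. Over those 1784 the share was 29.99%, inside the interval. Another 5 of the 24 were past 2-fold in HT-29 alone, 1 in CaCo-2 alone and 7 in neither. Input was 0 in at least 1 line for 8 of the 11. For the other 3, SETD1B, KMT2E and SMARCA4, it was at most 0.224 FPKM in both lines. With at least 1 FPKM in all 4 libraries, 3 shared transcripts were left (CHD8, HDAC7 and SMARCE1) and 0 of them were past 2-fold in both lines, against 12.7% of all such transcripts.

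CHD2, a remodeller linked to transcribed chromatin, supplied 2 of the 11. Its processed transcript ENST00000555582 (chromosome 15, 93493632 to 93510571) had RIP levels of 3.73 FPKM (HT-29) and 4.89 (CaCo-2), and both inputs were 0. Its retained-intron transcript ENST00000554771 (93443565 to 93444547) had 6.13 FPKM over 0 for HT-29 and 4.204 over 1.01 for CaCo-2. CHD2 thus had its highest ratio from an input of 0 in each line. CHD6, a remodeller of the same family, had 4.26 over 1.36 for HT-29 and 3.37 over 0 for CaCo-2 (ENST00000440647, chromosome 20, 40161795 to 40243412).

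Deacetylases supplied 3. HDAC2, a subunit of the NuRD and SIN3 co-repressors, had RIP levels of 3.67 FPKM (HT-29) and 5.50 (CaCo-2) with both inputs at 0 (ENST00000425835, chromosome 6, 114277091 to 114292042). HDAC6, a deacetylase of tubulin that is mostly cytoplasmic, was at 1.76 and 1.83, also from 0 (ENST00000426196, chromosome X, 48660599 to 48666735). HDAC1, the close paralog of HDAC2, had 3.24 over 0 for HT-29 and 1.55 over 0.0019 for CaCo-2, by a processed transcript (ENST00000481281, chromosome 1, 32757736 to 32793275). On the log2 scale the ratio of HDAC2 was 2.22 in HT-29 and 2.70 in CaCo-2, that of HDAC6 1.464 and 1.499, and that of HDAC1 2.08 and 1.35. In the authors' deposited table q lay between 0.326 and 1 for these 3.

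Methyltransferases supplied 4 and SWI/SNF 1. KMT2A, which methylates histone H3 at active promoters, had RIP levels of 4.71 FPKM (HT-29) and 1.39 (CaCo-2) with both inputs at 0, by a processed transcript (ENST00000420751, chromosome 11, 118352703 to 118355046). SETD1B, a catalytic subunit of a related complex, was at 1.93 and 1.22 from inputs of 0.00142 and 0.00677 (ENST00000267197, chromosome 12, 122242638 to 122270562). KMT2E was at 1.47 against 0.00182 and 1.76 against 0.224 (ENST00000478990, chromosome 7, 104654653 to 104730579). SETD4 was at 1.34 against 0 and 1.61 against 0.182 (ENST00000399207, chromosome 21, 37415996 to 37432543). SMARCA4, the ATPase motor of SWI/SNF, was at 1.96 against 0.00609 and 1.25 against 0.00232 (ENST00000450717, chromosome 19, 11094828 to 11172958). All 11 transcripts had a q of 0.326 or more in the authors' deposited table in both lines.

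**Figure D3:**
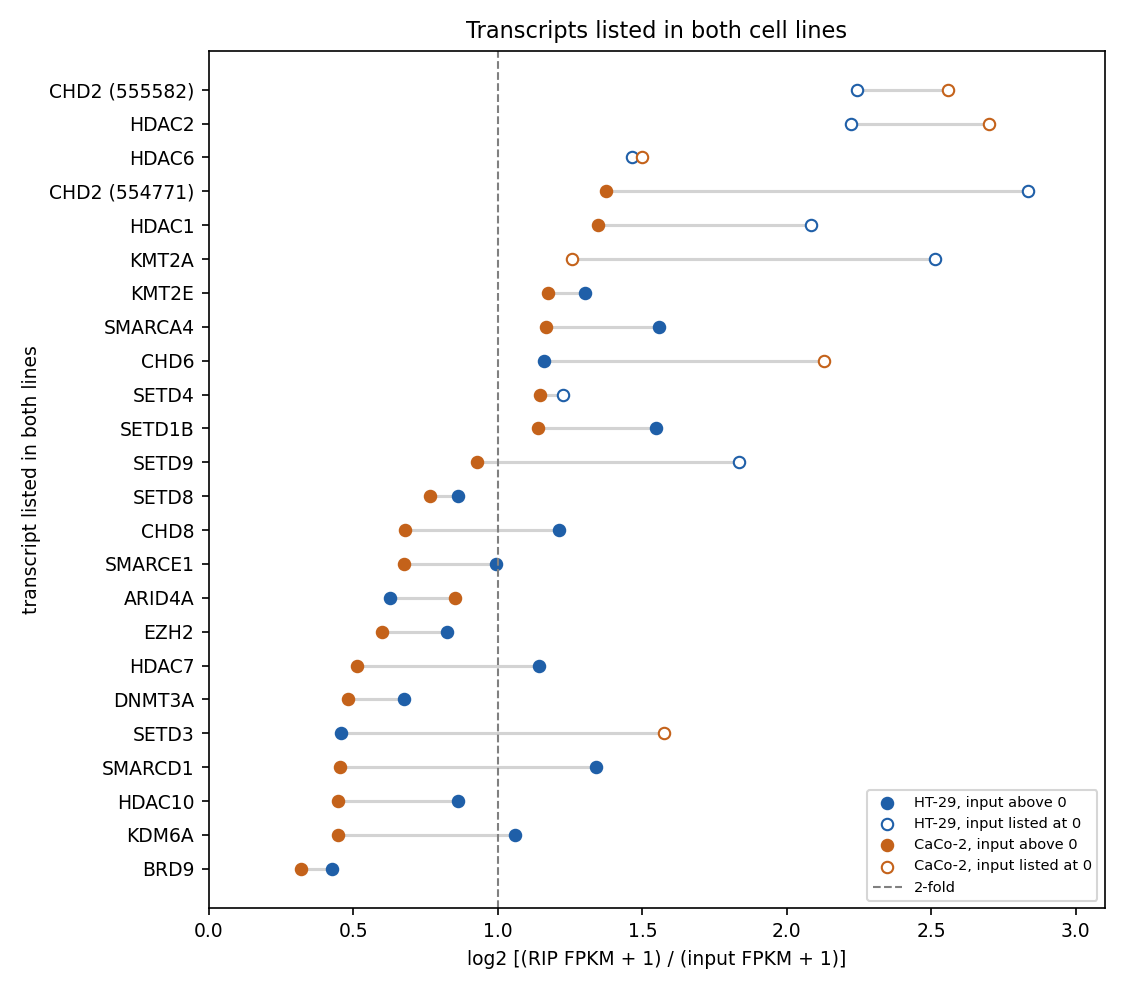
The 24 chromatin regulator transcripts that both tables list (y axis, ordered by the lower of their ratios) are plotted by log2 ratio of RIP over input (x axis, pseudocount 1 FPKM) in HT-29 (blue) and CaCo-2 (orange), with open circles for input listed at 0 and the end of the transcript number where a gene has 2. The upper 11 lie right of the dashed 2-fold line in both lines, and 18 of the 24 have their higher ratio in HT-29. The median of the 24 is 1.22 in HT-29 and 1.03 in CaCo-2. Over all 1928 shared transcripts it is 1.17 and 0.88, so ratios are higher in HT-29 there too.

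The counts by role are set beside the 2-fold share of the whole table, 56% in HT-29 and 34.6% in CaCo-2. Except for the DNA methyltransferases of CaCo-2, the 95% interval of each group includes that share. Those 8 transcripts come from 3 genes, and 4 of the 6 past 2-fold had an input of 0. The intervals treat transcripts of 1 gene as independent. They were read for 9 groups in each of 2 lines without correction, so 1 exception is not read as a result. SWI/SNF and related genes, which move nucleosomes with ATP, had 22 (HT-29) and 27 (CaCo-2) listed transcripts, with 13 and 10 past 2-fold (59.1% and 37.0%) and median log2 ratios of 1.25 and 0.89. The name match also takes in relatives outside SWI/SNF, such as the ISWI motors SMARCA1 and SMARCA5. SMARCE1, a DNA-binding subunit of the complex, had the highest RIP level of the group in each line. Its transcript ENST00000580419 (chromosome 17, 38785031 to 38804070) had 1.52 FPKM of input and 7.94 of RIP signal in CaCo-2, and a q of 0.0935 in the authors' deposited table. Another, ENST00000582955, had 5.19 over 2.11 for HT-29 and 3.07 over 1.55 for CaCo-2. The 6 listed SMARCE1 transcripts of CaCo-2 ranged in log2 ratio from 0.26 to 1.83. SMARCD1, an accessory subunit, had 3.17 over 0.649 for HT-29 and 3.48 over 2.27 for CaCo-2, by ENST00000381513. In CaCo-2 ARID4A, a relative of ARID4B, was at 2.74 against 1.07.

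Among CHD remodellers 8 of 11 HT-29 transcripts were past 2-fold (72.7%, 43.4 to 90.3, against 56%), and in CaCo-2 it was 7 of 16 (43.8% against 34.6%). Input was 0 for 45.5% and 25% of them, against 31.8% and 29.0% of the whole tables. The group held the highest ratio of the HT-29 members. CHD4, the motor of the NuRD co-repressor, reached 9.76 FPKM in the HT-29 RIP from 0 by a processed transcript (ENST00000542717, chromosome 12, 6688013 to 6690336), and 4.55 from 0 by a protein-coding one (ENST00000545584). Neither was listed in CaCo-2, where a different processed transcript (ENST00000540960) was at 5.73 against 0.649. The q of these 3 was 0.799, 0.732 and 1 in the authors' deposited table. CHD2 in CaCo-2 also had a protein-coding transcript at 5.02 against 2.40 (ENST00000557116), with 5 listed transcripts summing to 4.23 in input and 17.6 in the RIP.

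Acetyltransferases, which open chromatin by acetylating histones, had 3 of 5 transcripts past 2-fold in HT-29 (60% against 56%), and in CaCo-2 it was 2 of 6 (33.3% against 34.6%). KAT5, the catalytic subunit of the TIP60 complex, was at 3.15 FPKM against 0.572 in HT-29 (ENST00000525204). In CaCo-2 KAT8, which acetylates histone H4, was at 6.84 against 3.29 by a retained-intron transcript (ENST00000539683), and KAT7 at 3.76 against 1.88. Bromodomain readers, which bind acetylated histones, had 5 of 10 in HT-29 (50% against 56%), and in CaCo-2 it was 3 of 12, BRD2-IT1 among the 12 (25% against 34.6%). BRD2 held the highest RIP level of all members, 13.2 FPKM in HT-29, but against 8.40 in input, a log2 ratio of 0.60 (ENST00000482838, retained intron). BRD8, a subunit of the TIP60 complex, had 7.96 over 3.81 for HT-29 (ENST00000230901) and 2.32 over 1.49 for CaCo-2 (ENST00000471892). In CaCo-2 BRD2 was at 2.74 against 1.45 by a processed transcript.

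Deacetylases had 12 of 16 transcripts past 2-fold in HT-29 (75%, 50.5 to 89.8, against 56%), and in CaCo-2 it was 7 of 20 (35% against 34.6%). Their median log2 ratios were 1.53 and 0.64, against 1.14 and 0.81. Input was 0 for 8 of the 16 and 4 of the 20. HDAC8 had the highest RIP level of the group in HT-29, 6.36 FPKM from 0 by a processed transcript (ENST00000470998). With signal on both sides, HDAC7, a class IIa deacetylase, had 5.78 over 2.07 for HT-29 and 3.51 over 2.17 for CaCo-2, by the same transcript (ENST00000080059, chromosome 12, 48176505 to 48213568). The authors' deposited table has a q of 0.171 and 0.637 for them. HDAC1 was at 5.02 against 2.04 in HT-29 (ENST00000463172). HDAC2 was at 5.47 against 1.403 by the CaCo-2 retained intron ENST00000520746, beside its protein-coding transcript with input at 0. A second HDAC7 transcript of CaCo-2, a retained intron, was at 2.23 against 1.14.

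Histone methyltransferases had 26 listed transcripts in each line, with 15 past 2-fold in HT-29 (57.7% against 56%) and, for CaCo-2, 8 (30.8% against 34.6%), counts that include SETD5-AS1 and KMT2E-AS1. KMT2C and KMT2D, the enzymes that mark enhancers, had signal on both sides in HT-29. KMT2C was at 6.08 FPKM against 1.15 (ENST00000452749, chromosome 7, 152012350 to 152132884) and, by its longer transcript ENST00000355193, at 7.75 against 4.02. KMT2D was at 4.22 against 1.44 (ENST00000547610, chromosome 12, 49448163 to 49453557). KMT2C was not listed in CaCo-2. There SETD8, which methylates histone H4 and is now named KMT5A, was at 4.19 against 1.45 (ENST00000485469, chromosome 12, 123875927 to 123889465), and SETD6 at 2.76 against 1.11. SETD5 had the most listed transcripts of any member, 7 in CaCo-2, which summed to 7.57 in input and 16.6 in the RIP, and 0 of them were past 2-fold. The family name SETD also covers enzymes with substrates other than histones, such as SETD3, which methylates actin.

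Demethylases had 5 of 8 transcripts past 2-fold in HT-29 (62.5% against 56%), and in CaCo-2 it was 8 of 18 (44.4% against 34.6%). Besides KDM6A, KDM5C, which removes methyl groups from histone H3 at promoters, was at 4.09 FPKM against 2.11 in HT-29 by a retained-intron transcript. Its relative KDM5A was at 1.57 against 1.05 in HT-29, the lowest ratio of the HT-29 members. In CaCo-2 KDM2A was at 2.26 against 1.07, and KDM3A was at 2.81 from 0. ING readers, plant homeodomain proteins that guide acetyltransferase and deacetylase complexes to methylated histone H3, were few, with 2 of 3 past 2-fold in HT-29 (66.7% against 56%), and in CaCo-2 it was 0 of 4 (upper limit of the interval 49.0%, against 34.6%). ING3 was at 2.77 from 0 in HT-29 and ING4 at 2.75 against 1.73 in CaCo-2.

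Transcripts of the annotated retained-intron class were listed in both lines, and reads over introns were not examined. Retained-intron transcripts, which keep an intron and are often held in the nucleus, made up 21 of 106 members in HT-29 (19.8%, 13.3 to 28.4) and 44 of 137 in CaCo-2 (32.1%, 24.9 to 40.3), against 17.0% and 22.7% of all listed transcripts. Counted over the classes protein coding, retained intron, processed transcript and nonsense-mediated decay alone, the CaCo-2 share was 33.1% (25.7 to 41.5) against 25.6%. The lower end of that interval lies next to the value of the whole table, and no test was made. Protein-coding transcripts were 50.0% and 40.9% of members, against 49.6% and 43.0%.

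Of the HT-29 retained-intron members 12 of 21 were past 2-fold (57.1%, 36.5 to 75.5), against 52.0% of all retained-intron transcripts, and the retained intron of CHD2 had the third highest ratio of the members. In CaCo-2 9 of 44 were past 2-fold (20.5%, 11.2 to 34.5), against 27.0% of that class, while 23 of 56 protein-coding members were (41.1%), against 36.2%. Where a gene had both classes listed, the highest retained-intron ratio exceeded the highest protein-coding ratio for 3 of 9 genes (HT-29) and 5 of 18 (CaCo-2). Examples are ARID4B in HT-29, at 1.48 against 1.38 on the log2 scale, and HDAC2 in CaCo-2, at 1.43 against 2.70. These highest ratios come from differing numbers of transcripts, and the count was not made over all genes. In the whole tables the retained-intron median was 1.04 (HT-29) and 0.71 (CaCo-2), and the protein-coding median 1.07 and 0.85.

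**Figure D4:**
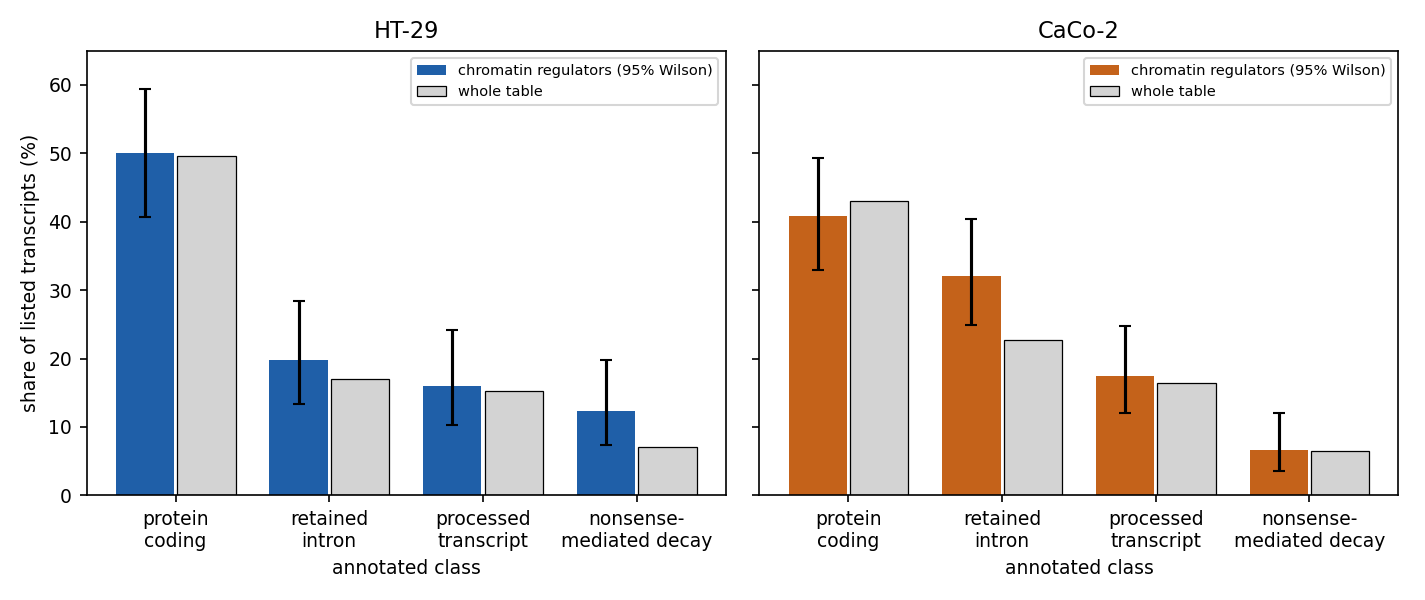
Bars give the share of listed transcripts (y axis, percent) in the 4 main annotated classes (x axis) for chromatin regulators (coloured, with 95% Wilson intervals) and for the whole table (grey) in each line. The retained-intron share of chromatin regulators is 32.1% in CaCo-2, where the whole table has 22.7%, and the other pairs of bars lie closer together except nonsense-mediated decay in HT-29 (12.3% against 7.07%).

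The 3 RNAs named after member genes had RIP levels from 0.993 to 2.92 FPKM. The median RIP level of all members was 2.06 in HT-29 and 1.66 in CaCo-2. SETD5-AS1, now named THUMPD3-AS1, was at 2.92 FPKM from 0 in HT-29 (chromosome 3, 9433049 to 9438716) and had 3 transcripts in CaCo-2 at 1.49 to 1.72. KMT2E-AS1 was at 2.07 against 1.24 in HT-29 (chromosome 7, 104653872 to 104654768). It lies on the opposite strand to 2 listed KMT2E transcripts that it overlaps. The sources used here do not say whether counting used strand, so reads of the pair cannot be told apart. BRD2-IT1, on the strand of BRD2 and overlapping 2 of its listed transcripts, was at 0.993 from 0 in CaCo-2.

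A second list of 98 chromatin genes with other names was described in the same way. It had 57 genes with 95 transcripts listed in HT-29 and 62 genes with 126 transcripts in CaCo-2. The RIP was past 2-fold for 52 of 95 (54.7%, 44.7 to 64.4) and 45 of 126 (35.7%, 27.9 to 44.4), close to the 56% and 34.6% of the whole tables. With input above 0 it was 18 of 61 (29.5%) and 14 of 90 (15.6%). These shares lie below those of all such transcripts (35.5% and 17.1%) and of members (39.4% and 25.2%). With at least 1 FPKM on both sides it was 12 of 41 (29.3%) and 3 of 28 (10.7%), against 25.2% and 13.1% of all such transcripts. In each line 4 of its transcripts had q at or below 0.05 in the authors' deposited table, 4.21% for HT-29 and 3.17% for CaCo-2, against 3.08% and 2.24% of all listed transcripts. CREBBP, the acetyltransferase that beta-catenin recruits, had RIP levels of 3.69 FPKM (HT-29) and 1.02 (CaCo-2) over inputs of 0, by the same transcript (ENST00000570939), and EP300 was not listed. Among its transcripts with at least 1 FPKM on both sides, the highest ratios were those of RBBP7, a histone-binding subunit of NuRD and Polycomb complexes, at 9.13 against 1.61 in HT-29, and SAP18, a co-repressor subunit, at 18.2 against 5.15. In CaCo-2, under the same limit, they were those of TRRAP, a scaffold of acetyltransferase complexes, at 3.91 against 1.25, and PBRM1, a SWI/SNF subunit, at 3.40 against 1.06. Transcripts with an input between 0 and 1 FPKM are outside that ranking, and some had higher ratios, such as TRIM28, a co-repressor, at 6.17 against 0.702 in CaCo-2.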

How the data were processed

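The data are 1 input and 1 beta-catenin RIP library from each of 2 colon adenocarcinoma lines. Per the submitters' processing notes, the tools were TopHat2 2.0.8 with Bowtie2, CASAVA 1.4, Cuffdiff and Cufflinks, and the build was hg19. Neither the annotation nor the strandedness is given in the sources used here. Per the labels, RNA came from nuclear lysate and went into a TruSeq RNA kit. Each deposited table holds 1 row per Ensembl transcript with FPKM of input and RIP, normalised by the authors, and the authors' p-value and q-value. Listed rows had a deposited fold of at least 1.5. Their log2 ratios recomputed from FPKM differed from the deposited ones by at most 0.00248. Sequencing depth is unknown from these tables, as is the number of fragments behind a value. Columns of per-sample values left unmapped numbered 0.

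Members were matched by name (80 of 83 are current symbols in RefSeq's GRCh38.p14 gene table, which served for names). Ratios used a pseudocount of 1 FPKM, with at least 1 FPKM in 1 of the 2 libraries. All 106 HT-29 members and 117 of the 137 CaCo-2 members passed, and shares in the report are over all listed members. No test was run: each group has 1 library, and a fit over both lines would use transcripts selected on the difference tested. Wilson intervals and order-statistic intervals of the median were made with Python 3.11.15 and scipy 1.17.1, and the counting was tested on simulated data. Coordinates are hg19, counted from 1. Alternatives were other pseudocounts, filters, folds, classes and 1 transcript per gene.

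The members, the role groups and the list of other chromatin genes were chosen with earlier results of these data known. Genes were named by a rule: q at or below 0.05, 2-fold in both lines, the 2 highest ratios per role and line with 1 FPKM in both libraries, the highest RIP level per role and line, and the 5 highest RIP levels with input 0. Genes cited beside these, such as further isoforms of a named gene, CHD4 in CaCo-2, SMARCD1, KMT2E-AS1, SETD5-AS1, BRD2-IT1, SETD5 and TRIM28, were chosen after their values were seen. Transcript sequences were not used here.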

Additional observations from a re-analysis of the deposited data

How the results depend on the processing

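Of 43 alternative values, 19 stayed within 1.5 times the main count or within the interval of the main median, and 24 did not. The counts were compared without their totals. A setting that leaves fewer members, or asks a higher fold, thus lowers the count by construction. The split into 19 and 24 therefore does not measure how far the shares depend on the processing, and shares are given below beside most counts. No alternative reversed a direction, which the tables fix. The count of 2-fold members in HT-29 (66), in CaCo-2 (51) and in both lines (11) was 5, 6 and 0 with at least 1 FPKM in both libraries. Those are 25%, 17.6% and 0% of the members left, against 25.2%, 13.1% and 12.7% of all transcripts treated alike. Without transcripts at input 0 it was 26 of 66, 26 of 92 and 3 of 14 (39.4%, 28.3% and 21.4%, against 35.5%, 19.5% and 13.4%). With 1 transcript per gene name it was 40 of 62, 28 of 61 and 5 of 11 (64.5%, 45.9% and 45.5%, against 55.6%, 41.0% and 30.3%). For the protein-coding class it was 33 of 53, 23 of 46 and 7 of 16 (62.3%, 50% and 43.8%, against 53.2%, 42.0% and 31.7%). At 3-fold it was 27, 12 and 2 (25.5%, 10.3% and 8.33%, against 23.6%, 10.9% and 7.62%). With a pseudocount of 0.1 FPKM the CaCo-2 count was 80 (68.4% against 67.2%) and the HT-29 count 89 (84.0% against 74.8%). CaCo-2 shares here are over members that passed the filter. The median log2 ratio (1.25 in HT-29, 0.84 in CaCo-2) was 2.48 and 1.46 with a pseudocount of 0.1 FPKM, 1.77 and 1.12 with 0.5, 0.74 and 0.68 with 1 FPKM in both libraries, and 0.86 and 0.72 without input 0. The medians of the whole tables under the same settings were 1.84 and 1.43, 1.42 and 1.06, 0.72 and 0.61, and 0.83 and 0.65, so the gap in HT-29 was wider with the smaller pseudocounts. Leaving out the 3 antisense and intronic RNA names, an alternative chosen after seeing the data, gave 65, 50 and 11. A fit over both lines with the line as a block was not run, since the transcripts in both tables were selected on the difference it would test. Depth is unknown, and RIP levels of a few FPKM make each ratio depend on the pseudocount.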
